A study of Mus musculus with 13 samples.

Results

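The keratin genes of the mouse were read here in mammary tumours and in wild-type mammary glands. Members were the symbols of the deposited count table made of Krt, a number and at most 1 letter, so keratin-associated proteins and pseudogenes were left out. This gave 49 genes of the 38279 symbols of the table. In the RefSeq annotation, 24 of them lie on chromosome 11 and 25 on chromosome 15. The study removed FBXW7, a ubiquitin ligase subunit, from the mammary epithelium with Cre, and its polyA RNA was sequenced. All mice, Cre-negative controls included, were mated at 12 weeks of age, which switched on the excision in Cre-positive mice. The 4 glands are whole mammary tissue of Cre-negative wild-type mice, 20 weeks old for glands 1, 2 and 3 and 40 weeks old for gland 4. The 6 tumours came from Cre-positive mice aged 25, 32, 39, 19, 53 and 25 weeks, in the order of tumours 1 to 6. The labels name neither the promoter that drives Cre nor the strain. The series has 13 samples, and its 3 samples of isolated epithelial cells are not used here.

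Keratins are the intermediate filament proteins of epithelial cells. A filament is built from pairs of a type I and a type II keratin, so the genes are used in couples such as Krt18 with Krt8 and Krt14 with Krt5. In the mammary gland the simple keratins mark the luminal cells that line ducts and alveoli, and the basal pair marks the myoepithelial layer beneath them. The stress keratins of skin, Krt6a, Krt6b, Krt16 and Krt17, are known for their induction at wounds, and the cornifying keratins for the differentiated layers of the epidermis.

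Library totals ran from 13723065 to 48353114 counts. Levels are counts scaled with TMM factors to a common library size (CPM), and the factor was 0.422 in tumour 1 and 0.58 in gland 4 against 0.889 to 1.41 in the other libraries. A list of 8 salivary acinar markers took 43.9% of all counts in tumour 1 and 17.1% in tumour 6, against 0.00199% to 0.0521% elsewhere, and skeletal muscle markers took 7.19% in gland 4. Fits without tumours 1 and 6, and without these and gland 4, were run beside each result. Fbxw7 itself stood at 14.3, 17.7, 18.4 and 83.4 CPM in the glands and between 15 and 47.2 CPM in the tumours, with no difference past the test (log2 fold change -0.12, edgeR adjusted p = 0.888). The deleted stretch of the gene is not known here, so this whole-gene count does not check the labels.

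Keratins as a family stood higher in the tumours. Their summed level was 346 to 651 CPM in the glands and 988, 3210, 2530, 3140, 5830 and 2120 CPM in tumours 1 to 6, so that every tumour lay above every gland. As a share of the unscaled counts, keratins took 0.0274% to 0.0729% of the gland libraries. In tumours 2 to 6 that share was 0.211% to 0.824%, while tumour 1, with 0.0417%, lay within the gland range. These are bulk tissues, in which fewer cells of a type and less RNA per cell cannot be told apart. Luminal epithelial markers moved the same way: 8 of 10 were called higher, beside 6.89% of all genes tested. Their median log2 fold change was 2.56, beside 0.17 over all genes tested. Their sum went from 209 to 301 CPM in the glands to 1220 to 2480 CPM in the tumours. All 9 adipocyte markers fell, beside 8.19% of all genes tested, with a median log2 fold change of -6.15. The part of these changes in tissue makeup in the keratin levels was not tested.

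Of the 49 genes, 26 had enough counts to be tested, and edgeR's quasi-likelihood test with Benjamini-Hochberg adjustment over all 20101 genes called 11 of them higher in tumours. Over all genes, 6.89% were called higher and 8.19% lower. Among the tested keratins 0 were called lower by edgeR, 2 had an unadjusted p under 0.05 in that direction, and DESeq2 and limma-voom each called 1. The filter asked for about 10 counts in 4 libraries, and 12 of the 26 passed it without every gland reaching that level, Krt6a, Krt6b, Krt16 and Krt42 among them. Such genes could hardly have been called lower. For 14 keratins every gland was above the filter level, and 7 of these were called higher. All 6 tumours lay above all 4 glands for 10 of the 26, beside 6.47% of all genes, and below them for Krt36 alone, beside 7.56% of all genes. Krt6a, Krt6b, Krt16 and Krt42, which passed the filter only through the tumours, are among the 10. For Krt6b the separation rests on 1 count in tumour 3 against 1 in gland 2, a smaller difference than counting can resolve. For Krt6a it rests on 5 counts in tumour 3 against 2 in gland 3. The count above every gland depends on the TMM scaling. Tumour 1 has a factor of 0.422, and with plain CPM fewer keratins were above every gland there. The 23 keratins that were not tested include Krt25, Krt75 and Krt90, described with their roles, and 20 genes whose highest level in any library was 2.78 CPM.

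**Figure D1:**
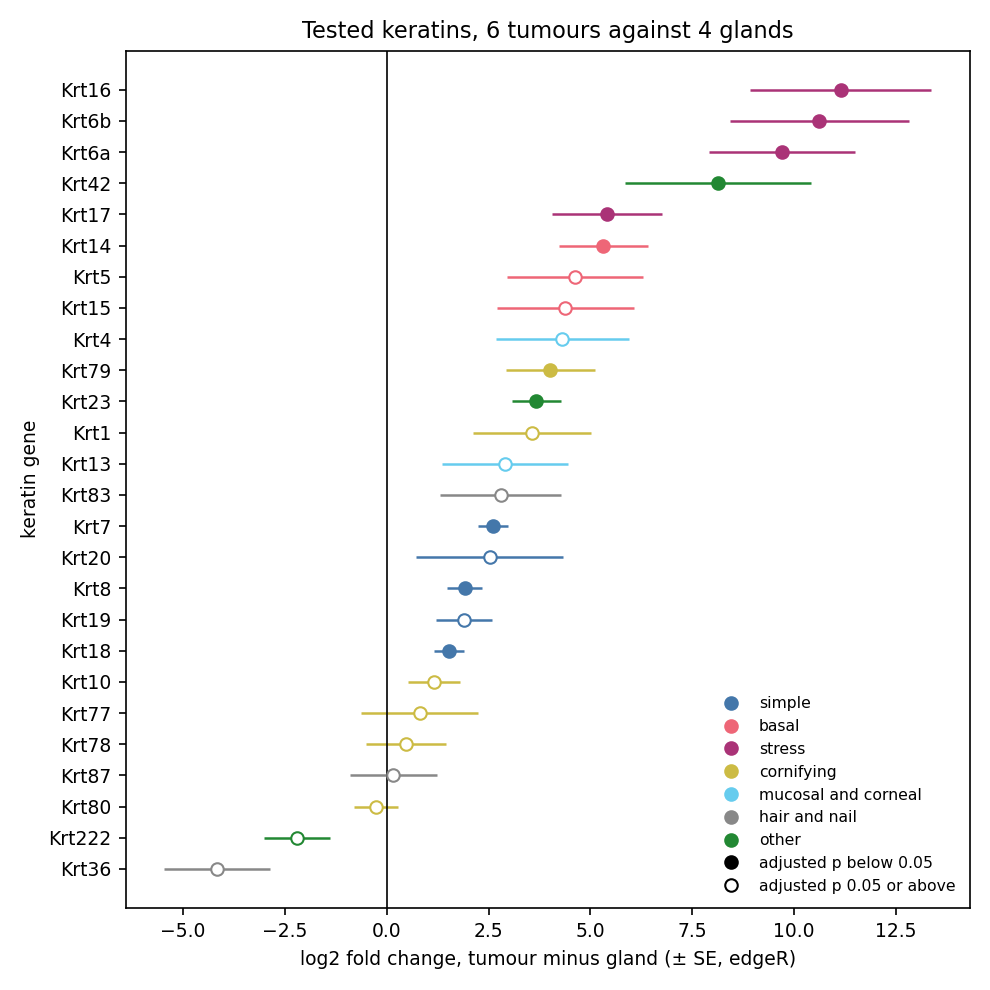
Log2 fold change (tumour minus gland, horizontal axis) of the 26 tested keratins, coloured by role, with filled points for an adjusted p below 0.05. Bars are an SE worked back from edgeR's F statistic. The 11 filled points all lie right of 0; the values of Krt16, Krt6a, Krt6b and Krt42 rest on 0 to 10 counts over the 4 glands and depend on the prior count.

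Among the simple keratins, Krt8, Krt18 and Krt7 rose in the tumours, while Krt19 and Krt20 did not pass the test. Krt8 and Krt18 form the first filament pair of simple epithelia and lie next to each other on chromosome 15. Their upstream sequences are shown because the pair makes up most of the keratin mRNA of the gland together with Krt19. They are the 250 bases before the transcript start in RefSeq (GRCm38.p6), Krt8 at chr15:102004343-102004592 on the minus strand and Krt18 at chr15:102027966-102028215 on the plus strand, each 5′ to 3′ on the gene's own strand. Capitals mark the letters CACCC or their reverse complement.
Krt8: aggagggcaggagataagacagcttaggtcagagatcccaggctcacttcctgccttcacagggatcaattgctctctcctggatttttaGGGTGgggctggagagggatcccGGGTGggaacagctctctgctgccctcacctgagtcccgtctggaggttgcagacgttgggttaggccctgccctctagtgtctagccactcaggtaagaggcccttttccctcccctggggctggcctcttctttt
Krt18: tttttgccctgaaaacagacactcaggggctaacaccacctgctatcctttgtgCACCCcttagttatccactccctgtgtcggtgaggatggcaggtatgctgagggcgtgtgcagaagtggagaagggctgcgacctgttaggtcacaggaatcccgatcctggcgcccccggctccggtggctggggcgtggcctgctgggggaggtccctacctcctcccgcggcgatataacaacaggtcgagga
Searched on both strands were the TATA box letters TATAAA, the AP-1 letters TGANTCA, the GC box letters GGGCGG and the Krüppel-like factor letters CACCC. Of these, CACCC was the only match in either window, with 2 in Krt8 and 1 in Krt18.

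Krt8, the type II partner, was at 170, 151, 85.7 and 119 CPM in glands 1 to 4. In tumours 1 to 6 it was at 226, 560, 522, 829, 282 and 561 CPM. Every tumour was above every gland, with tumours 1 and 5 lowest and tumour 4 highest. For tumour 1 this rests on the scaling: it had 3321 unscaled counts against 5972 in gland 1, a smaller library. The gland mean was 132 ± 37.2 CPM (SD, n = 4) and the tumour mean 496 ± 218 CPM (SD, n = 6). Krt8 rose with a log2 fold change of 1.92 ± 0.43 (SE) and edgeR adjusted p = 0.0171. Without gland 3 the call was lost (adjusted p = 0.0529).

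Krt18, the type I partner, was at 203, 167, 114 and 159 CPM in the glands and at 376, 595, 670, 547, 220 and 369 CPM in the tumours. The groups did not overlap, but tumour 5 at 220 CPM was close to gland 1 at 203 CPM. Before scaling, tumour 1 had 5531 counts and gland 1, a smaller library, 7122. Means were 161 ± 36.7 CPM over the glands (SD, n = 4) and 463 ± 169 CPM over the tumours (SD, n = 6). Krt18 rose with a log2 fold change of 1.53 ± 0.38 (SE) and edgeR adjusted p = 0.0236. It was no longer called when gland 1, 2, 3 or 4 was left out, with an adjusted p of up to 0.0737. A share of 32.3% of the 31-base words of the Krt8 transcript also occurs in other genes, nearly all in Krt8-ps, and 11.4% of those of Krt18, so the counts are uncertain where these pseudogene copies took reads.

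Krt7, a type II keratin of ductal epithelia, gave the most stable call of the simple keratins. Its glands read 35.4, 37.1, 24.2 and 31.4 CPM and its tumours 96.3, 147, 270, 200, 294 and 170 CPM. The lowest tumour, tumour 1, was above the highest gland, which rests on the TMM factor of tumour 1. Krt7 rose by a log2 fold change of 2.62 ± 0.37 (SE) with edgeR adjusted p = 0.00374, and the adjusted p was at most 0.0183 in the 10 fits that each left out 1 library.

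Krt19, a type I keratin of luminal and ductal cells, split the tumours. The glands were at 150, 142, 81.4 and 111 CPM, and tumours 2 to 6 at 591, 953, 555, 193 and 368 CPM. Tumour 1, at 43.4 CPM, was below every gland, while the other 5 tumours were above every gland. Over all 6 tumours the log2 fold change was 1.90 ± 0.68 (SE) with edgeR adjusted p = 0.08. Without tumour 1 it was 2.12 with adjusted p = 0.0165, without tumours 1 and 6 it was 2.22 with adjusted p = 0.013, and DESeq2 called it over all libraries (adjusted p = 0.02), while limma-voom gave an adjusted p of 0.197 and the fit with age 0.125.

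Krt20, the simple keratin of intestine and urothelium, was low in the glands (0.285, 0.358, 0.5 and 0.0635 CPM). It reached 10.2 CPM in tumour 5, while the other 5 tumours were between 0 and 0.194 CPM. Its log2 fold change of 2.53 ± 1.80 (SE) did not pass edgeR's test (adjusted p = 0.333). Without tumour 5 the filter left it untested.

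The basal keratins Krt5 and Krt15 differed among tumours more than any other keratin tested. Krt14 and Krt5 form the filament pair of the basal layer, and Krt14 rose while Krt5 and Krt15 did not pass the test. Their upstream windows are printed for comparison with the simple pair, and Krt5 was taken as the partner of Krt14 after its values were seen. In RefSeq (GRCm38.p6) the 250 bases before the start are chr11:100206031-100206280 for Krt14 and chr15:101712906-101713155 for Krt5, both on the minus strand, with CACCC or its reverse complement in capitals.
Krt14: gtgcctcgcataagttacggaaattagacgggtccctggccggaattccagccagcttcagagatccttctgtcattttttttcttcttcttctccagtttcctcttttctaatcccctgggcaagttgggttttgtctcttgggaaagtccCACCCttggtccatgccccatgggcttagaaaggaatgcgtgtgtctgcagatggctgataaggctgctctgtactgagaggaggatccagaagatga
Krt5: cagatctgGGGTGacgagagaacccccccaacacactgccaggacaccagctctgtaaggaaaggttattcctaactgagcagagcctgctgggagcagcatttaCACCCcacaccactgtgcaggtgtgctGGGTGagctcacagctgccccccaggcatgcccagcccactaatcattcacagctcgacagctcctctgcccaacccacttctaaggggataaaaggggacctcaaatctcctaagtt
The Krt14 window holds 1 match to CACCC and the Krt5 window 3, and neither holds the other motifs searched, so no 2 motifs overlap in these 4 windows. The RefSeq table has 33 windows for 32 keratins. CACCC stood in 26 of these windows (78.8%) beside 52% of all 32851 windows of that length, and the TATA box letters in 14 (42.4%) beside 12.4%. The GC box letters stood in 2 keratin windows (6.06%) beside 32.7% of all windows, and the AP-1 letters in 2 (6.06%) beside 6.75%. These are letter matches only.

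Krt14, the type I basal keratin, was at 19.9, 14.5, 7.9 and 10.9 CPM in the glands. In tumours 1 to 6 it was at 94.7, 411, 29.2, 448, 1850 and 358 CPM. The lowest tumour, tumour 3, was above the highest gland, and tumour 5 was far above the rest. The gland mean was 13.3 ± 5.16 CPM (SD, n = 4) and the tumour mean 532 ± 668 CPM (SD, n = 6). Krt14 rose with a log2 fold change of 5.32 ± 1.10 (SE) and edgeR adjusted p = 0.0129. In the fits without 1 library the log2 fold change stayed between 4.34 and 5.58 and the adjusted p at or under 0.0439.

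Krt5, the type II basal keratin, was at 17.7, 11, 7.73 and 13.2 CPM in the glands and at 18.1, 407, 0.148, 161, 1220 and 37.8 CPM in the tumours. Tumours 2, 4 and 5 were far above the glands, tumour 1 was beside the highest gland, and tumour 3 was below every gland on 6 counts. The log2 fold change of 4.63 ± 1.67 (SE) had an edgeR adjusted p of 0.0816. Without tumour 3 it was 4.90 with adjusted p = 0.029, DESeq2 gave an adjusted p of 0.00156, limma-voom 0.57 and the fit with age 0.184.

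Krt15, a type I keratin of basal and progenitor cells, followed neither of them exactly. It was at 7.01, 1.57, 1.72 and 3.62 CPM in the glands and at 0.204, 225, 2.27, 25.7, 179 and 2.53 CPM in the tumours. Tumour 2 was highest, tumour 1 was below every gland, and tumours 3 and 6 lay within the gland range. Its log2 fold change was 4.38 ± 1.68 (SE) with edgeR adjusted p = 0.0973, and DESeq2 gave 0.00388. Without tumours 1 and 6 the adjusted p was 0.0227. Limma-voom gave a log2 fold change of 2.61 with adjusted p = 0.388, and the fit with age an adjusted p of 0.215.

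No marker of myoepithelium, the cells that carry the basal pair in the gland, passed the test. Of 8 tested, edgeR called 0 in either direction, 2 had an unadjusted p under 0.05 higher and 1 lower, DESeq2 called 1 higher and 1 lower, and limma-voom 1 lower. Their median log2 fold change was -0.26. Their summed level was 200 to 283 CPM in the glands and, in tumours 1 to 6, 102, 479, 99.1, 169, 238 and 343 CPM. Trp63, the transcription factor of basal epithelia and one of the 8, was at 6.39, 75.5, 0.964, 27.3, 105 and 7.96 CPM in tumours 1 to 6 and at 3.85 to 13.8 CPM in the glands (log2 fold change 2.38 ± 1.07, edgeR adjusted p = 0.146). It put the 6 tumours in the same order as Krt5, from tumour 5 down through 2, 4, 6 and 1 to 3, which was seen after the values were known.

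**Figure D2:**
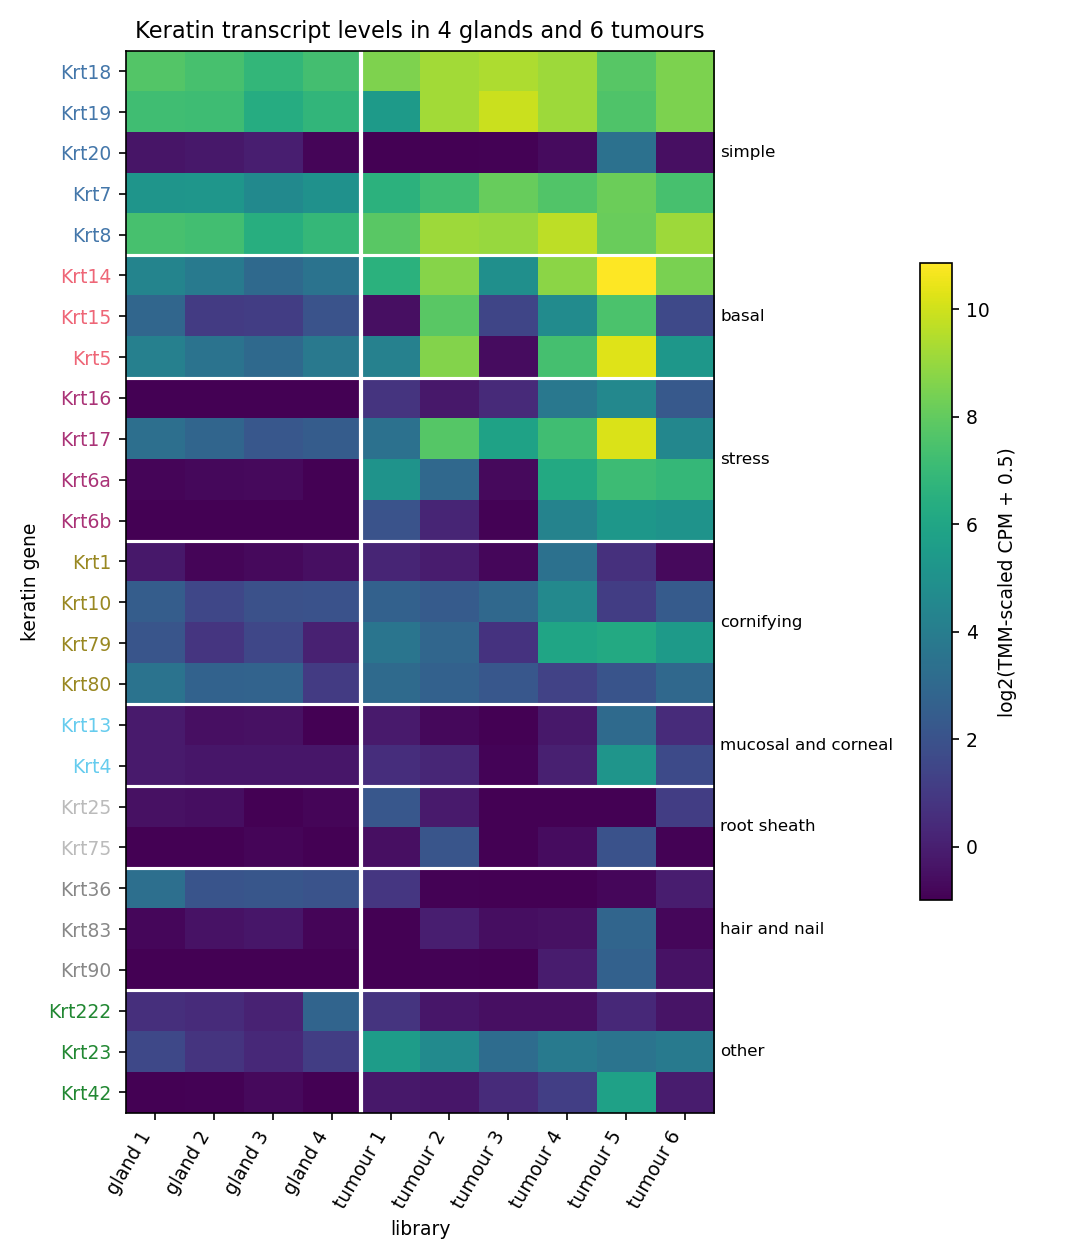
Heat map of the level of 26 keratins, in order of role, in each of the 4 glands and 6 tumours (columns), with colour as log2(TMM-scaled CPM + 0.5). The simple keratins other than Krt20 are at 24.2 CPM or more in every column, while Krt5 runs from 0.148 CPM in tumour 3 to 1220 CPM in tumour 5.

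All 4 stress keratins rose in the tumours. Krt6a and Krt6b are near copies of each other in parts, and Krt16 and Krt17 of Krt14, which bears on how reads were divided. The first set of sequences shows the same 90 coding bases of Krt14, Krt16 and Krt17 and the second those of Krt6a and Krt6b, from GENCODE M21 transcripts, coding strand, 5′ to 3′. Capitals mark the positions where the genes of a set are not all alike, 6 in the first set and 2 in the second.
Krt14: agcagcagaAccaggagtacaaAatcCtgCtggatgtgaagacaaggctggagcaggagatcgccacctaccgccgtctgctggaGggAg
Krt16: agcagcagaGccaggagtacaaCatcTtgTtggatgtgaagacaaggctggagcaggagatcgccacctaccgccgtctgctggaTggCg
Krt17: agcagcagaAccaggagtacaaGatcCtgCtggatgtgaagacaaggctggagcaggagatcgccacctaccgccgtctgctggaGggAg
Krt6a: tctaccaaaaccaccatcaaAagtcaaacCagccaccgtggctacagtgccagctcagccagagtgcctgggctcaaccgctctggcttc
Krt6b: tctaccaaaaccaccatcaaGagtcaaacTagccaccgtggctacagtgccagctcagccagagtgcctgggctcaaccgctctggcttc
The windows start at coding base 1193 of Krt14, 1169 of Krt16, 1082 of Krt17 and 4 of both Krt6 genes. The longest run of coding bases in common is 55 bases for Krt14, Krt16 and Krt17 and 280 bases for Krt6a and Krt6b. Of all 31-base words, 55.1% of Krt6a, 57% of Krt6b, 51.9% of Krt16, 29.2% of Krt14 and 15.8% of Krt17 also occur in another gene's transcripts. The levels of these genes are uncertain to that extent, and most so where a low gene shares words with a much higher one. Krt16 shares the most words not with a keratin but with Gm11597, in which 32.2% of its 31-base words occur.

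Krt6a, a type II stress keratin, was nearly silent in the glands, at 0.057, 0.0935, 0.111 and 0 CPM. The tumours were at 33.9, 7.55, 0.124, 73.4, 138 and 117 CPM. Tumours 4, 5 and 6 were high, tumours 1 and 2 lower, and tumour 3, on 5 counts, was just above the highest gland. The log2 fold change was 9.70 ± 1.79 (SE) with edgeR adjusted p = 0.00874, and the call was kept in each of the 10 fits without 1 library, with an adjusted p of at most 0.0376. Limma-voom did not call it (adjusted p = 0.196), and without tumours 1 and 6 the filter left Krt6a and Krt6b untested.

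Krt6b, its near copy, had 1 count over the 4 glands and was at 3.6, 0.664, 0.0247, 19, 38.5 and 33.4 CPM in the tumours. Tumours 4, 5 and 6 were again highest and tumour 3 lowest. The pooled level was 2210 times that of the glands, with a 95% exact counting interval of 396 to 87300 that covers counting error only. Krt6b rose by edgeR's test (adjusted p = 0.0129). Without gland 2, which holds the single count, the adjusted p was 0.0609, and limma-voom did not call the gene.

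Krt16, the type I partner of the Krt6 proteins, had no count in any gland. The tumours were at 1.22, 0.362, 0.84, 12.8, 22.6 and 4.44 CPM, highest in tumours 5 and 4. Pooled over the tumours, 8.15 CPM was at least 361-fold higher than the floor of 3 counts over the gland group (0.0226 CPM), a log2 bound of 8.50. Krt16 rose by edgeR's test (adjusted p = 0.0171) and was called in each of the 10 fits without 1 library.

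Krt17, a type I keratin of basal, myoepithelial and wounded epithelium, was the stress keratin with a clear gland level, at 9.58, 6.75, 4.11 and 5.02 CPM. The tumours were at 10.1, 210, 56.8, 147, 1180 and 21.7 CPM. Tumour 1 was only just above gland 1, and tumour 5 was the highest by far. Before scaling, tumour 1 had 149 counts and gland 1, a smaller library, 336. Krt17 rose with a log2 fold change of 5.41 ± 1.36 (SE, edgeR adjusted p = 0.0255), but leaving out gland 1, 2, 3 or 4 ended the call (adjusted p up to 0.0709). Limma-voom and a fit with age as a covariate did not call it. The median log2 fold change of the 4 stress keratins was 10.16 as fitted and 9.10 with Krt16 at its bound. Krt6a, Krt6b and Krt16, with 10, 1 and 0 counts over the 4 glands, passed the filter only through the tumours. The median therefore depends on the prior count and is not set against that of all genes.

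Of the 9 cornifying keratins, 6 were tested and only Krt79 rose by edgeR's test. Krt79, a type II keratin of sebaceous and hair canal cells, was at 3.91, 1.29, 2.34 and 0.571 CPM in the glands. It was at 11.6, 7.01, 1.19, 61.3, 73.2 and 43.2 CPM in the tumours, with tumour 3 inside the gland range and the other 5 above it. The log2 fold change was 4.02 ± 1.09 (SE) with edgeR adjusted p = 0.0323. Leaving out gland 1, 2, 3 or 4 or tumour 4 ended the call (adjusted p up to 0.0918), as did limma-voom, age as a covariate and the fit without tumours 1 and 6 and gland 4.

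Krt1 and Krt10, the filament pair of the upper epidermis, were highest in tumour 4. Krt1, the type II member, was at 10.3 CPM there, at 0.0741 to 1.04 CPM in the other tumours and at 0.0623 to 0.342 CPM in the glands. Its log2 fold change of 3.57 ± 1.44 (SE) did not pass the test (edgeR adjusted p = 0.111) and was 1.40 without tumour 4. Krt10, the type I member, was at 23.1 CPM in tumour 4, at 1.72 to 7.41 CPM in the other tumours and at 5.13, 2.38, 3.34 and 3.43 CPM in the glands. Its log2 fold change was 1.16 ± 0.64 (SE, edgeR adjusted p = 0.219) and 0.49 without tumour 4. Tumour 4 thus held the pair together at a level that the other tumours did not reach.

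Of the 9 genes listed for bundling or crosslinking cornifying keratins, 5 were highest in tumour 4. Flg, the filament-aggregating protein of the epidermis, was at 95.7 CPM in tumour 4 and at most 0.797 CPM in any other library. Flg2 at 2.47 CPM, Hrnr at 3.13 CPM, Lor at 4.43 CPM and Ivl at 0.433 CPM, other genes of the cornified layer, had their highest values there too. The other 4 did not: Tchh was highest in tumour 5 at 3.85 CPM and, at 0.156 CPM in tumour 4, was below every gland, and the transglutaminases Tgm1, Tgm3 and Tgm5 were highest in tumour 6, gland 1 and tumour 2, at 7.27, 23.8 and 2.87 CPM. Among the remaining cornifying keratins, Krt77 was at 4 CPM in tumour 4 and 1.68 CPM in gland 1. Krt80, at 11, 6.09, 6.39 and 1.59 CPM in the glands and 2.01 to 8.09 CPM in the tumours, did not pass the test (log2 fold change -0.26 ± 0.54, edgeR adjusted p = 0.752). Krt76 reached 1.8 CPM in tumour 5 and Krt78 1.22 CPM in tumour 5, and Krt2 reached 1.02 CPM in tumour 1 and 0.865 CPM in tumour 4.

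Mucosal keratins stood out in tumour 5. Krt4, the type II keratin of oral and oesophageal lining, was at 36.3 CPM there, at 0.0494 to 2.66 CPM in the other tumours and at 0.317 to 0.399 CPM in the glands. Its partner Krt13 was at 7.97 CPM in tumour 5, at 0 to 0.86 CPM in the other tumours and at 0 to 0.399 CPM in the glands. Neither passed the test: the log2 fold change of Krt4 was 4.31 ± 1.63 (SE, edgeR adjusted p = 0.0927) and 1.51 without tumour 5, and that of Krt13 was 2.91 ± 1.55 (SE, edgeR adjusted p = 0.207) and 0.66 without tumour 5. Krt12, the corneal keratin, was at most 0.204 CPM in any library.

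Keratins of the hair follicle and nail were low, and 3 of 20 could be tested. Krt36, a type I hair and tongue keratin, was at 9.69, 3.66, 4 and 3.62 CPM in the glands and at 1.36, 0.0302, 0, 0, 0.0741 and 0.472 CPM in the tumours. Every tumour was below every gland, and the log2 fold change of -4.16 ± 1.30 (SE) had an edgeR adjusted p of 0.0519. Without tumour 1, the highest tumour, it was -5.56 with adjusted p = 0.0163. DESeq2 (adjusted p = 0.00593) and limma-voom (adjusted p = 0.0039) both called it lower over all libraries, and over all alternatives run the adjusted p ranged from 0.00241 to 0.136.

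Krt83, a type II hair keratin, was at 6.75 CPM in tumour 5 and at most 0.498 CPM elsewhere (log2 fold change 2.80 ± 1.49, edgeR adjusted p = 0.206, and 0.19 without tumour 5). A share of 39.2% of its 31-base words is shared with other genes, mostly Krt86. Krt90 was at 5.86 CPM in tumour 5 and at most 0.45 CPM elsewhere. Its pooled ratio of tumours to glands was 174, with a counting interval of 31.1 to 6910, and the glands held 1 count. Of the 353 tumour counts, 316 came from tumour 5, and tumours 1 and 3 had 0, so the ratio is not one for the tumours as a group. Krt75, the companion layer keratin, was at 3.81 CPM in tumour 2 and 3.41 CPM in tumour 5, and its pooled ratio of 111 had an interval of 30.5 to 919. That ratio too rests on few libraries: of 449 tumour counts, tumour 2 gave 252 and tumour 5 gave 184, and tumour 3 had 0. Krt25, an inner root sheath keratin, was at 4.15 CPM in tumour 1 and 1.72 CPM in tumour 6, the libraries with salivary transcripts, at 0.393 CPM in tumour 2 and at most 0.228 CPM elsewhere. Krt71 and Krt26, also of the inner root sheath, were highest in tumour 2, at 2.78 and 2.31 CPM.

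The skin appendage markers were mixed. Of 4 tested, Sox21 and Scd3 were called higher and Msx2 lower. The sum over all 10 markers of the list was 4.95 to 5.56 CPM in the glands and 7.34, 26.4, 2.1, 15.2, 16.9 and 9.35 CPM in tumours 1 to 6, highest in tumour 2. Scd3, a desaturase of sebaceous glands, gave 21.1 CPM of the sum in tumour 2 and 12.7 CPM in tumour 4. Msx2, a homeobox gene of the hair matrix, was at 3.45 to 3.95 CPM in the glands and 0.138 to 0.589 CPM in the tumours, where it fell by 3.58 ± 0.49 on the log2 scale (SE, edgeR adjusted p = 0.00323). Hoxc13, the transcription factor of the hair shaft, was at 3.35 CPM in tumour 2, 0.952 CPM in tumour 1 and at most 0.138 CPM elsewhere. Krtap8-1 was at 0 in every tumour. Sox21 was at 6.86 CPM in tumour 5 and at most 0.638 CPM elsewhere. Foxn1 was at 5.17 CPM in tumour 5, 1.09 CPM in tumour 1 and at most 0.225 CPM elsewhere. Hoxc13, Krtap8-1 and Tchhl1 were at 0 in tumour 5. The part of skin or follicle cells in the values of Krt25, Krt26, Krt42, Krt71, Krt75, Krt79, Krt83 and Krt90 was not tested.

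Of the keratins outside these classes, Krt23 and Krt42 rose. Krt23, a type I keratin of glandular epithelia, was at 2.51, 1.23, 0.779 and 1.71 CPM in the glands and at 46.2, 25.4, 8.62, 14.3, 11.2 and 13.6 CPM in the tumours. The groups were well apart, and tumour 1, low for Krt8, Krt7 and Krt19, was the highest. The log2 fold change of Krt23 was 3.67 ± 0.60 (SE) with edgeR adjusted p = 0.00552, and the adjusted p was at most 0.023 over all alternatives run. None of its 31-base words occurs in another gene.

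Krt42, a type I keratin known from nail and footpad, was at 54.3 CPM in tumour 5 and at 0.332 to 1.78 CPM in the other tumours, with 0, 0.0312, 0.111 and 0 CPM in the glands. Every tumour was above every gland after TMM scaling, in tumour 1 on 5 counts. Krt42 rose by edgeR's test with a log2 fold change of 8.13 ± 2.29 (SE) and adjusted p = 0.0374. That fold rests on 4 counts over the 4 glands and depends on the prior count. The log2 fold change was 4.45 without tumour 5, and leaving out gland 1, 2, 3 or 4 ended the call (adjusted p up to 0.107), as did limma-voom and age as a covariate. Krt222, a truncated keratin-like gene, was at 6.54 CPM in gland 4 and 0.612 to 0.998 CPM in glands 1 to 3, against 0.198 to 1.22 CPM in the tumours. Its log2 fold change of -2.19 ± 0.81 (SE, edgeR adjusted p = 0.0879) was -0.85 without gland 4, the library with muscle transcripts, and -2.62 with adjusted p = 0.0482 without tumour 1.

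Within each library, the makeup of the keratin mRNA was read per kilobase of the longest protein-coding transcript in GENCODE M21, as shares of the summed keratin level per kilobase. This measure does not depend on scaling between libraries. The glands were alike: simple keratins made up 87.7% to 91.7% of the keratin level, basal keratins 4.53% to 6.31% and stress keratins 1.17% to 1.64%. Krt18 was the leading gene in each gland, with 36.3% to 40.1%, ahead of Krt19 and Krt8.

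The tumours differed from the glands and from each other in this makeup. Tumour 3 was almost wholly simple, at 95.4%, with 1.27% from basal and 2.53% from stress keratins, and Krt19 alone gave 41.1%. Tumours 1, 2, 4 and 6 had 76.2%, 60.4%, 68.5% and 70% from simple keratins and 11.4%, 30.4%, 20% and 19.6% from basal keratins. Tumour 5 was mainly basal, at 54.5%, with 26.5% from stress and 15.5% from simple keratins, and its leading genes were Krt14, Krt17 and Krt5. In all 6 tumours the stress share was above the highest gland, from 2.53% in tumour 3 to 26.5% in tumour 5, and in tumours 1, 2, 4, 5 and 6 the basal share was too.

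**Figure D3:**
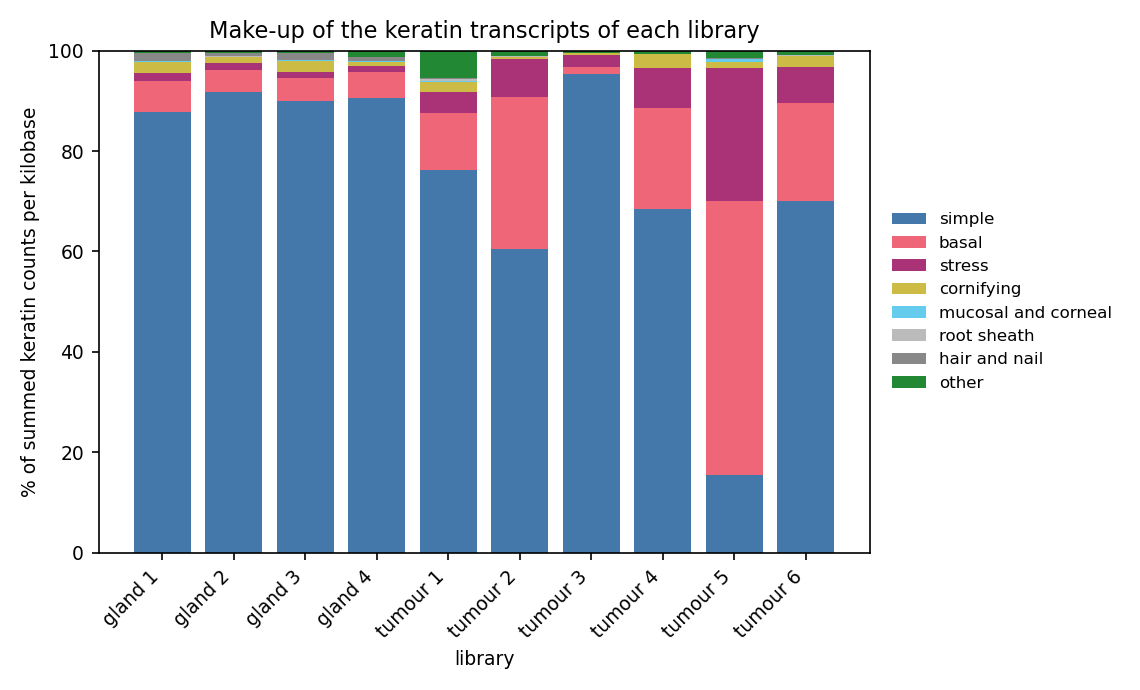
Share (%) of the summed keratin level per kilobase that comes from each keratin class, 1 bar for each of the 4 glands and 6 tumours. Simple keratins fill 87.7% to 91.7% of the gland bars, 95.4% in tumour 3 and 15.5% in tumour 5.

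Krt23 made up 5.26% of the keratin level per kilobase in tumour 1, and 0.223% to 0.882% in the other tumours. Krt6a made up 4.4% in tumour 6 and 2.65% in tumour 1, and 0.00369% in tumour 3. The ratio of summed type I to type II keratin level per kilobase was 2.38 to 2.63 in the glands and 2.25, 2.54, 3.4, 1.83, 2.52 and 1.68 in tumours 1 to 6. Tumours 1, 4 and 6 were thus below, and tumour 3 above, the gland range.

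The ratios within filament pairs differed between tumours and glands. Per kilobase, the ratio of Krt18 to Krt8 was 1.5 to 1.82 in the glands and 2.27, 1.45, 1.75, 0.899, 1.07 and 0.897 in tumours 1 to 6, so that tumours 4 and 6 had more of the type II member. The ratio of Krt14 to Krt5 per kilobase was 1.07 to 1.72 in the glands and 6.78, 1.31, 255, 3.6, 1.97 and 12.3 in tumours 1 to 6. It lay above every gland in all tumours except tumour 2. The value of tumour 3 rests on 6 counts of Krt5, and a part of Krt14 is shared with Krt16. Outside the filament pairs, the ratio of Krt6a to Krt6b, both type II, was 9.22, 11.1, 4.91, 3.79, 3.51 and 3.45 per kilobase in tumours 1 to 6. In tumour 3 it rests on 5 counts of Krt6a and 1 of Krt6b. Of the 31-base words of Krt6a, 49.3% occur in Krt6b, so the ratio depends on how reads were divided. The ratio of Krt19 to Krt18, both type I, lay outside the gland range of 0.64 to 0.779 on both sides, from 0.105 in tumour 1 to 1.3 in tumour 3.

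**Figure D4:**
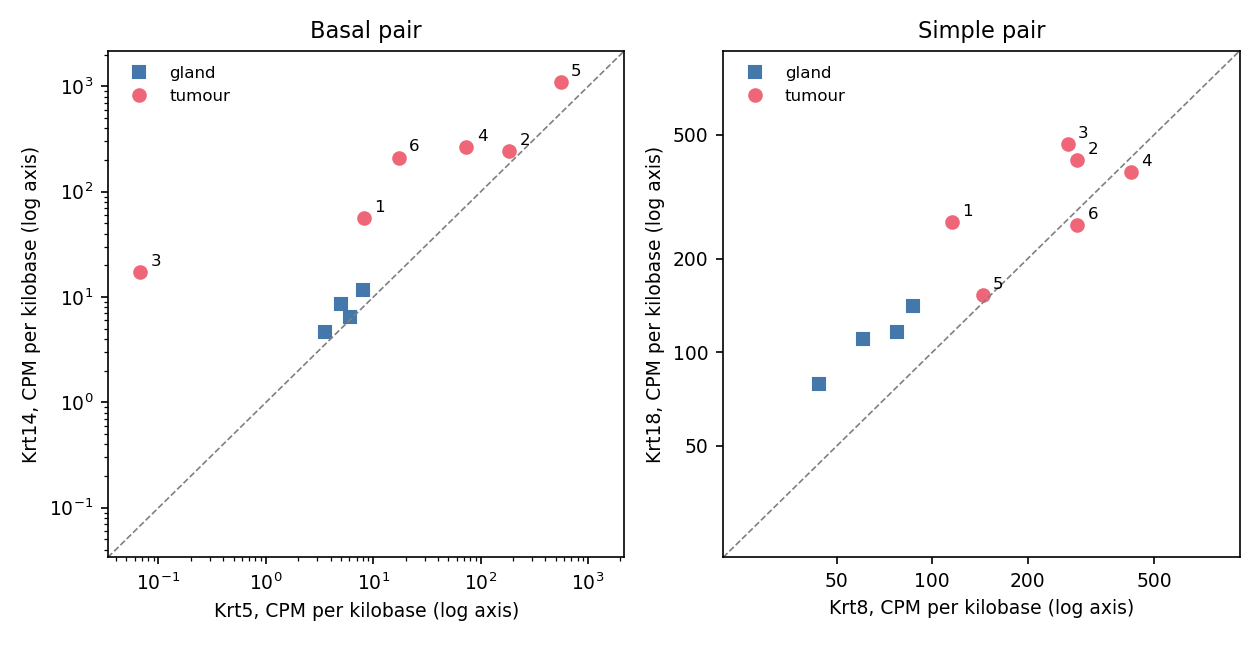
Levels of Krt14 against Krt5 (left) and of Krt18 against Krt8 (right), in CPM per kilobase on log axes, 1 point per library with tumours numbered and a dashed line at equal levels. Tumour 3 lies far left in the basal panel with almost no Krt5, while tumours 4, 5 and 6 lie near the line in the simple panel.

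Taken singly, each tumour had more tested keratins above than below the gland range. Of the 26 tested keratins, 16, 18, 12, 18, 21 and 16 were above every gland in tumours 1 to 6, where the shares over all genes were 33.0%, 33.7%, 33.3%, 34.3%, 30.7% and 25.9%. Of the same 26, 6, 3, 7, 3, 2 and 2 were below every gland, beside 30.8%, 28.6%, 32.1%, 30.5%, 26.2% and 22.8% of all genes. Some of the 26 passed the filter only through tumours, so the 14 with every gland above the filter level are given as well: of these, 9, 10, 8, 11, 10 and 9 were above every gland, and 3, 2, 3, 2, 2 and 2 below. Among those 14 genes, Krt36 was below every gland in all 6 tumours, Krt222 in tumours 2, 3, 4 and 6, Krt15 and Krt19 in tumour 1, Krt5 in tumour 3 and Krt10 in tumour 5. With plain CPM, which leaves out the TMM factor, 6 of the 26 were above every gland in tumour 1 in place of 16.

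The tumours split the highest levels unevenly. Among the 26 keratins named with their values, tumour 5 held the highest level of all 10 libraries for 14, the 4 stress keratins, Krt14, Krt5, Krt7, Krt20, Krt79, Krt4, Krt13, Krt83, Krt90 and Krt42. Tumour 4 was highest for Krt8, Krt1 and Krt10, tumour 3 for Krt18 and Krt19, tumour 2 for Krt15 and Krt75, and tumour 1 for Krt23 and Krt25, and tumour 6 for none of them. Tumour 5 came from the oldest mouse, at 53 weeks, and age cannot be told apart from this single tumour. The spread over the 6 tumours, as the SD of log2(CPM + 0.5), was 3.86 for Krt5, 3.45 for Krt15, 2.99 for Krt6a, 2.44 for Krt17 and 2.06 for Krt14, beside a median of 0.62 over all genes. For Krt5 this exceeded 99.9% of tested genes. It was 0.593 for both Krt18 and Krt7 and 0.702 for Krt8, so the simple keratins Krt7, Krt8 and Krt18 varied about as much as a typical gene.

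Some genes of the proteins that anchor keratin filaments at cell junctions rose in the tumours. Of 12 desmosome and plakin genes tested, 5 rose and 2 fell, beside 6.89% and 8.19% of all genes tested. Their median log2 fold change was 1.60 beside 0.17 over all genes. Desmoplakin, Dsp, which ties keratins to desmosomes, had a gland mean of 11.8 ± 3.04 CPM (SD, n = 4) and a tumour mean of 84.8 ± 23.7 CPM (SD, n = 6). Dsp rose by 2.85 ± 0.32 on the log2 scale (SE, edgeR adjusted p = 0.00176). Plakophilin Pkp1 rose by 4.74 ± 0.73 (SE, edgeR adjusted p = 0.00454), and the hemidesmosome integrin Itgb4 by 2.99 ± 0.58 (SE, edgeR adjusted p = 0.01), both on the log2 scale. The linkers Plec and Dst, which muscle also uses, fell, with log2 fold changes of -1.60 ± 0.49 (edgeR adjusted p = 0.0482) and -1.64 ± 0.44 (edgeR adjusted p = 0.0309). Their highest level was in gland 4, at 203 and 240 CPM. Without gland 4 neither was called and Dst was at -1.04. Dst was also lost without gland 1, tumour 2 or tumour 3, without tumours 1 and 6, and without these and gland 4. Plec was lost without gland 1, gland 2 or any 1 of tumours 1 to 5, and without tumours 1 and 6 and gland 4. Upper-quartile scaling, no filter, the stricter filter and age as a covariate ended the Plec call too.

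No other intermediate filament gene was called higher. Of 10 tested, edgeR called 0 higher (2 with an unadjusted p under 0.05, 0 by DESeq2 and by limma-voom) and 2 lower. Vim, the filament of mesenchymal cells, was at 328 to 845 CPM in the glands and at 253, 257, 1850, 571, 208 and 430 CPM in the tumours (log2 fold change -0.04 ± 0.64, edgeR adjusted p = 0.969), highest in tumour 3. The muscle filaments Des and Synm fell, by -6.03 ± 1.68 (edgeR adjusted p = 0.0357) and -4.72 ± 1.05 (edgeR adjusted p = 0.0168) on the log2 scale. Their values without gland 4 were -3.63 and -3.02, and Des was then not called. Des was also lost without gland 1, gland 2 or any 1 of tumours 1, 2, 4 or 5, and with age as a covariate (edgeR adjusted p = 0.074). Limma-voom did not call Synm (adjusted p = 0.0515). All 9 skeletal muscle markers were lower in log2 fold change and 6 were called, beside 8.19% of all genes called lower. The part of muscle in Des and Synm was not tested.

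Among the cornified crosslinking genes, 5 of 9 were tested. The transglutaminase Tgm3 fell from 23.8, 5.56, 3.11 and 6.22 CPM in the glands to 0.0247 to 0.433 CPM in the tumours, a log2 fold change of -5.65 ± 0.83 (SE, edgeR adjusted p = 0.00395). Tgm5, a transglutaminase of the epidermis, had no count in any gland and was at 0.0247 to 2.87 CPM in the tumours, where it rose by edgeR's test (adjusted p = 0.0249). That call was lost without gland 1, without gland 2, and without tumours 1 and 6 and gland 4. The filter kept Tgm5 in only 8 of the fits that left out 1 library. Of 16 epithelial transcription factors, 12 were called higher, beside 6.89% of all genes tested. The median log2 fold change was 2.50 over the list and 0.17 over all genes tested. For 3 the log2 fold change was below 0 and did not pass edgeR's test, Klf4 at -0.42 (adjusted p = 0.64), Gata3 at -0.24 (adjusted p = 0.754) and Foxa1 at -1.65 (adjusted p = 0.24), and limma-voom called 1 gene of the list lower. Foxa1, a pioneer factor of luminal cells, was at 19.7 to 28.8 CPM in the glands, at 29.2 CPM in tumour 5 and at 0.272 to 5.83 CPM in the other 5 tumours. Grhl2, which maintains epithelial junctions, rose by 3.17 ± 0.31 (SE, edgeR adjusted p = 0.00164), Zfp750, a regulator of epidermal differentiation, by 3.06 ± 0.38 (SE, edgeR adjusted p = 0.00224), and Ovol2, a repressor of mesenchymal genes, by 3.40 ± 0.47 (SE, edgeR adjusted p = 0.00329), all on the log2 scale.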

How the data were processed

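The deposited values are read counts, whole numbers for each symbol, from polyA RNA of whole tissue. Salmon 1.2.0, DESeq and mm9 appear in the submitters' processing notes with no role. How the authors counted, and whether by strand, is not stated. Groups came from the labels, which do not say that libraries are separate animals, so p-values measure the spread between libraries. Keratins and all lists were chosen with earlier results of these data known.

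All 20101 genes passing filterByExpr were fitted with edgeR 4.0.16 (TMM, quasi-likelihood F test, two-sided, Benjamini-Hochberg, threshold 0.05) in R 4.3.3, and keratins were read from that fit. Alternatives were other scalings, DESeq2 1.42.0, limma-voom (limma 3.58.1), other filters, age in weeks and left-out libraries. Reference transcripts (GENCODE M21) and RefSeq promoters are GRCm38, another build than mm9, so coordinates are given for sequences only. RefSeq held 32 of the 49 keratins as promoters. The tools were tested on simulated data of 19645 genes, of which 200 were changed. There edgeR found 0 of the 67 genes given a 2-fold change, 6 of 67 at 4-fold and 32 of 66 at 8-fold. It made 2 false calls. DESeq2 found 7, 41 and 61 and made 76 false calls, and limma-voom found 0, 6 and 31 and made 1. The share changed was smaller than the 15.1% of genes called in the real data, so these rates need not carry over. Named keratins are those called or with a group mean of at least 1 CPM (26 genes), and up to 3 called genes a direction from each partner list. A floor is 3 counts. Intervals cover counting error only.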

Additional observations from a re-analysis of the deposited data

Results flagged for a closer look

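Among 52 keratin-by-group sets of 4 or 6 libraries, 10 had 1 library set apart from the rest by a Dixon test at the 95% level. Its nominal rate of about 1 in 20 groups assumes normally distributed values, and many of these levels were near the floor. The keratins were also chosen in part by their group means, so the 10 are not set against chance. In tumour 5 these were Krt20 at 10.2 CPM (0 to 0.194 CPM in the other tumours), Krt13 at 7.97 CPM (0 to 0.86 CPM), Krt83 at 6.75 CPM (0 to 0.498 CPM), Krt90 at 5.86 CPM (0 to 0.45 CPM) and Krt42 at 54.3 CPM (0.332 to 1.78 CPM). In tumour 4 it was Krt1 at 10.3 CPM (0.0741 to 1.04 CPM). Among the glands, Krt36 in gland 1 was at 9.69 CPM (3.62 to 4 CPM in the others) and Krt222 in gland 4 at 6.54 CPM (0.612 to 0.998 CPM). Krt6b and Krt90 in gland 2 were each at 0.0156 CPM, which is 1 count, with 0 in the other glands.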

How the results depend on the processing

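Over the whole table edgeR called 3030 genes, DESeq2 5252, the fit with age 1899, and the fit without tumours 1 and 6 and gland 4, 4640. Leaving out 1 library at a time gave 1053 to 3521. With upper-quartile scaling the split of 1384 higher and 1646 lower became 1809 and 1313, and the median log2 fold change of all genes moved by 0.16; the same 11 keratins were called. No filter moved that median by 0.31. The 11 keratins called higher became 13 by DESeq2, 6 by limma-voom, 9 with the stricter filter (Krt16 and Krt42 not tested), 8 with age, 12 without tumours 1 and 6, and 6 to 12 without 1 library, where the 4 fits without a gland gave 7, 6, 6 and 7. The 0 called lower became 1, Krt36, by DESeq2, by limma-voom, without tumours 1 and 6, and without these and gland 4, and 0 to 2 without 1 library (Krt36 and Krt222 without tumour 1). Signs changed for Krt20 (-0.86 by limma-voom, -1.71 with age), Krt80 (0.16 with age, and -0.66 to 0.14 without 1 library, above 0 without gland 1) and Krt83 (-0.23 with age), none of them called. Against glands 1 to 3 alone, 5, 11, 5 and 4 keratins were below the range in tumours 2, 3, 4 and 6, and with plain CPM 6 were above it in tumour 1 and 1 below it in tumour 5. Without division by length, the simple share was 85.9% in gland 1 and 88.2% in gland 3. The cause was not tested. No paired analysis was possible because the groups share no replicate numbers in the labels.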
